A study of Mus musculus with 6 samples.

Results

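Genes of platelet-derived growth factor (PDGF) signalling and markers of pericytes were measured by RNA sequencing of mouse lung. The set holds 10 genes chosen by symbol, namely the ligand genes Pdgfa, Pdgfb, Pdgfc and Pdgfd, the receptor genes Pdgfra and Pdgfrb, and the pericyte markers Rgs5, Cspg4, Higd1b and Ndufa4l2. These were 10 of the 23284 genes in the table, and all 10 passed the filter on low values that left 14855 genes for testing. Fra-2tg mice, which carry a transgene for Fra-2, the AP-1 transcription factor encoded by Fosl2, were compared with wild-type (WT) littermates, with 3 mice in each group. All 6 mice were 6 weeks old and on a C57BL/6 background, and the labels name no treatment. Poly(A) RNA came from lung tissue, so each value sums over all cells of the organ. The sources used here give neither the promoter that drives the transgene nor the cells in which it acts.

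Pericytes are mural cells that sit on the outer face of capillaries, under the endothelial basement membrane. Endothelial cells release PDGF-B, which binds PDGF receptor beta on pericytes and recruits them to growing vessels. PDGF-A acts through PDGF receptor alpha on lung fibroblasts and is needed for alveoli to form. PDGF-C and PDGF-D are secreted in a latent form and act only after proteases remove a CUB domain.

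Levels are given as FPKM, the fragments of a gene corrected for the transcript's length and for the sequencing depth, in the order of replicates 1, 2 and 3. Fosl2 stood at 12.3, 17.4 and 15.8 FPKM in Fra-2tg lungs, against 11.1, 13.9 and 11.2 FPKM in WT lungs. These groups overlapped, and the adjusted p was 0.158. The sources used here do not say whether transcripts of the transgene were counted under Fosl2. The related AP-1 gene Fosl1 had 39.9, 44.4 and 46 FPKM in Fra-2tg lungs, against 0.0271, 8.23 and 0.0631 FPKM in WT lungs (adjusted p 0.0103), with WT replicate 2 far above the other WT lungs. WT replicate 2 also stood apart on the first principal component, at -18 against -31 and -40.6 for the other WT lungs and 27.9 to 32.8 for Fra-2tg lungs. Of markers of lung itself, Ager had 1319 to 1594 FPKM in Fra-2tg and 1546 to 1664 FPKM in WT. Hopx was lower, at 595 to 640.2 FPKM in Fra-2tg and 997 to 1059 FPKM in WT (limma adjusted p 0.00215). Sftpb was higher, at 3460.2 to 3642 FPKM in Fra-2tg and 2056 to 2949.7 FPKM in WT (limma adjusted p 0.0424). Sftpc was listed at 0 in every Fra-2tg lung and at 25397 to 33559 FPKM in WT. Scgb1a1 was listed at 0 in Fra-2tg replicate 2 and WT replicate 1 and at 66105 to 121243 FPKM in the other lungs. An exact 0 in such abundant lung genes may be a failed estimate, so no difference is read from these listings. The number of fragments behind each value is not given, and relative depth estimated from the smallest values was 0.927 to 1.39 in Fra-2tg and 0.841 to 1 in WT.

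Of the 6 ligand and receptor genes 4 were called lower in Fra-2tg lungs, and 2 of the 4 pericyte markers were called higher. Pdgfa, Pdgfb, Pdgfd and Pdgfra fell, and Pdgfc, Rgs5 and Higd1b rose. Pdgfrb, Cspg4 and Ndufa4l2 did not pass the test. The test was limma on log2(FPKM + 1), and a call required an adjusted p below 0.05 over all tested genes. Thus 7 of 10 genes were called, where 26.7% of all tested genes were, 3 higher where 13.6% of all tested genes were called higher and 4 lower where 13% were called lower. The groups did not overlap for 8 of the 10 genes, 3 higher and 5 lower, where 45.7% of all tested genes had groups that did not overlap. The median log2 fold change of the 10 genes was -0.15, and that of all tested genes was 0.0026. Counts in the lists of other genes below stand against these same shares of all tested genes. Without WT replicate 2, 3 genes were called higher and 3 lower, and without WT replicate 3 the counts were 2 higher and 2 lower. In these bulk samples, fewer cells of a type and less RNA per cell cannot be told apart.

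**Figure D1:**
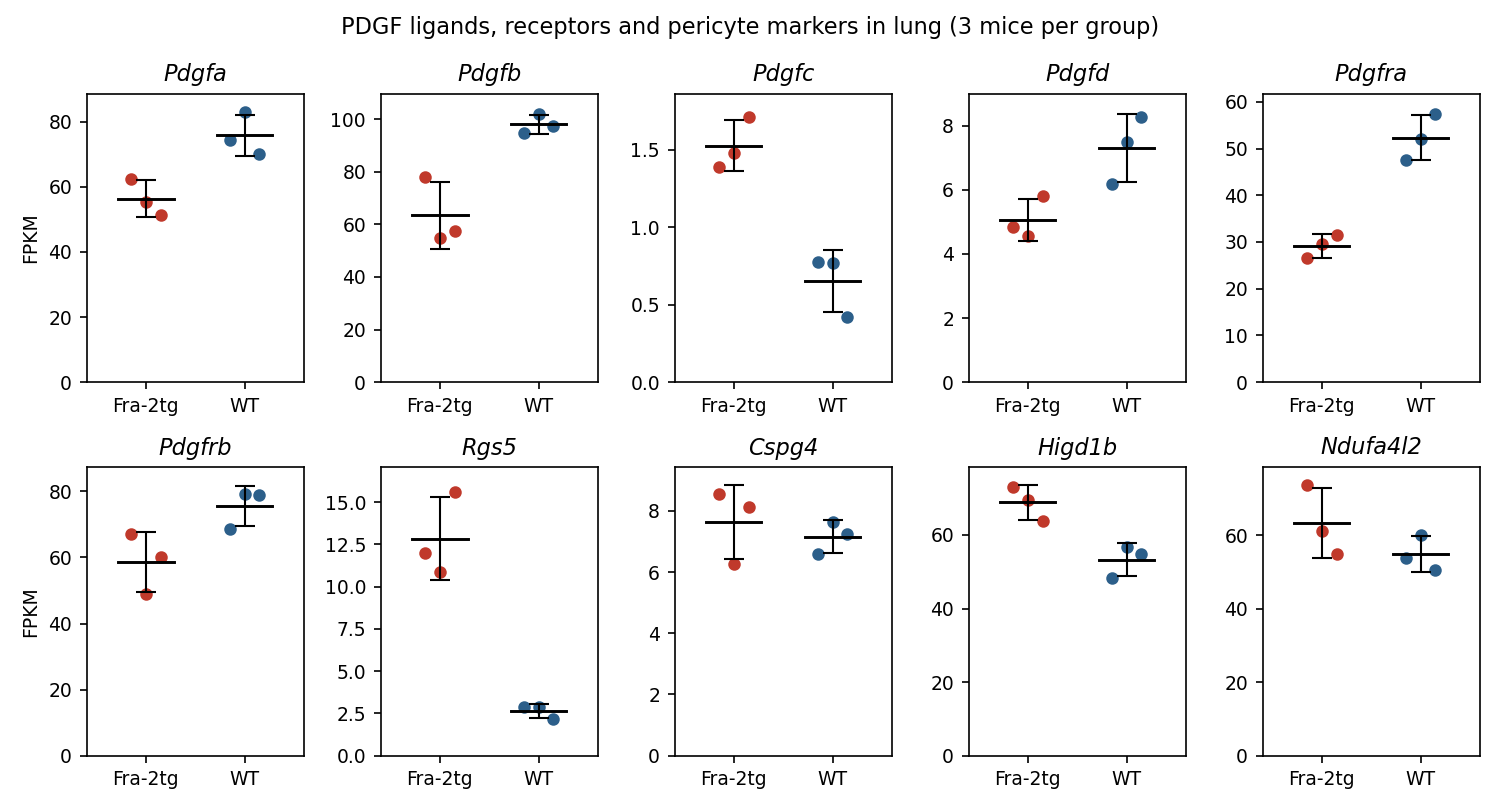
Level of each gene in FPKM (vertical axes, each from 0) in 3 Fra-2tg lungs (left) and 3 WT lungs (right); points are mice, horizontal lines are group means and error bars are SD. Rgs5 stands at 10.9 to 15.6 FPKM in Fra-2tg against 2.16 to 2.88 FPKM in WT, while Pdgfra stands at 26.5 to 31.5 FPKM against 47.6 to 57.3 FPKM.

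The bases before the transcription start are shown for the largest rise among the 10 genes (Rgs5), the largest fall (Pdgfra) and the ligand gene that rose (Pdgfc). Each is 250 bases on the gene's own strand, 5′ to 3′, from RefSeq on build GRCm38.p6, at chr1:169655251-169655500 for Rgs5, chr5:75152001-75152250 for Pdgfra and chr3:81036166-81036415 for Pdgfc, all on the plus strand. Capitals mark a CArG box, the element that serum response factor binds, found by letters alone.
Rgs5: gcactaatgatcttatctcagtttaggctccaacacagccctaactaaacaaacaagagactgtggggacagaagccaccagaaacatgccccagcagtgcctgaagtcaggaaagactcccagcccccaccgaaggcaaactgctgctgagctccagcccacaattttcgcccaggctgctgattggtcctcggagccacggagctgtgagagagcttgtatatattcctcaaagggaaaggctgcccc
Pdgfra: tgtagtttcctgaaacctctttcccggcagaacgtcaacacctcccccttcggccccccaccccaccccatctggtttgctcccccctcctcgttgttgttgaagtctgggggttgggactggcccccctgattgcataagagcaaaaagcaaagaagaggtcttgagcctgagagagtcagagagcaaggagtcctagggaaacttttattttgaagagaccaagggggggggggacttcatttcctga
Pdgfc: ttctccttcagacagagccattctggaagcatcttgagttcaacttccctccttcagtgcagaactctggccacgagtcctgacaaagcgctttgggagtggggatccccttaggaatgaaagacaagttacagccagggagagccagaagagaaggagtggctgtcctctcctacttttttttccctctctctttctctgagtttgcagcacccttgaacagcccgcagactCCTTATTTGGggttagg

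Promoter windows of 300 bases, 250 before and 50 after the start, were searched on both strands in 7 windows of 6 of the genes, Pdgfa having more than 1. Pdgfb, Pdgfrb, Higd1b and Ndufa4l2 had no promoter entry and were not searched. The AP-1 motif TGANTCA was in none of the 7 windows, and 7.81% of 32851 promoters of this length held it. The hypoxia response motif ACGTG was in none of them, against 19.6% of all promoters. Its variant GCGTG was in windows of Cspg4 and Pdgfa, against 32.4% of all promoters. The motif TGGGAA of the Notch effector was in windows of Pdgfa and Pdgfd, against 25.6%. The CArG box was in the Pdgfc window, 17 to 8 bases before the start, and in 1.63% of all promoters. A match describes letters and is not evidence of a bound site, and no match in a window says nothing about the factor.

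Among the ligands, the 2 abundant genes and Pdgfd were lower in Fra-2tg lungs and the scarce Pdgfc was higher. Pdgfb, which encodes the chain that recruits pericytes, is at chr15:79995874-80014977 on the minus strand, overlapped by Mir7213 on the same strand and Gm41361 on the other. It had 78, 54.7 and 57.6 FPKM in Fra-2tg lungs, against 94.6, 102 and 97.5 FPKM in WT lungs. Every Fra-2tg lung was below every WT lung, with replicate 1 the closest. Pdgfb averaged 63.4 ± 12.7 FPKM in Fra-2tg and 97.9 ± 3.49 FPKM in WT (SD, n = 3 each), a ratio of 0.648, and its log2 fold change was -0.64 ± 0.13 (SE) with a limma adjusted p of 0.015. The call was lost without WT replicate 3 (adjusted p = 0.0521) and with no filter on low values (0.0604), and adjusted p ran over 0.00566 to 0.0604 across the 16 alternatives.

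Pdgfa, the chain that acts on fibroblasts through receptor alpha, is at chr5:138976014-138997370 on the minus strand, overlapped by 6330403L08Rik on the other strand. Its levels were 62.4, 55.2 and 51.3 FPKM in Fra-2tg lungs, against 74.2, 82.8 and 70.2 FPKM in WT lungs, so that the groups did not overlap. The means were 56.3 ± 5.66 FPKM in Fra-2tg and 75.7 ± 6.45 FPKM in WT (SD, n = 3 each), and the log2 fold change was -0.42 ± 0.09 (SE; limma adjusted p = 0.019). Without Fra-2tg replicate 3 the log2 fold change was -0.36 with an adjusted p of 0.0503, and with no filter the adjusted p was 0.0611, within a range of 0.0137 to 0.0611 over the alternatives.

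Pdgfd, whose product acts mainly on receptor beta, lies at chr9:6168584-6378850 on the plus strand, with Ddi1 inside it on the other strand. It was far scarcer than Pdgfa and Pdgfb, at 4.83, 4.56 and 5.8 FPKM in Fra-2tg lungs, against 6.17, 7.48 and 8.28 FPKM in WT lungs. The highest Fra-2tg value was just under the lowest WT value. The log2 fold change was -0.45 ± 0.12 (SE) with a limma adjusted p of 0.0359, and this call was lost in 5 of the 16 alternatives. The adjusted p rose past the threshold without Fra-2tg replicate 1 (0.107), Fra-2tg replicate 2 (0.091), WT replicate 2 (0.0896) or WT replicate 3 (0.112), and with no filter (0.0996). Over all alternatives it ran from 0.022 to 0.112.

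Pdgfc, whose product acts on receptor alpha, lies at chr3:81036416-81214040 on the plus strand, overlapped by Gm16000 on the other strand. It was the scarcest ligand, at 1.39, 1.48 and 1.71 FPKM in Fra-2tg lungs, against 0.773, 0.769 and 0.423 FPKM in WT lungs. All Fra-2tg lungs were above all WT lungs, and WT replicate 3 was the lowest. The means of 1.52 ± 0.165 FPKM in Fra-2tg and 0.655 ± 0.201 FPKM in WT (SD, n = 3 each) gave a ratio of 2.33. The log2 fold change was 0.61 ± 0.12 (SE; limma adjusted p = 0.0117), a value that the pseudocount of 1 FPKM shrinks at this level. The call held in each of the 15 alternatives that tested the gene, with log2 fold changes of 0.51 to 1.25. The ligands ranked Pdgfb, Pdgfa, Pdgfd and Pdgfc from high to low FPKM in each library except Fra-2tg replicate 2, where Pdgfa was at 55.2 and Pdgfb at 54.7 FPKM.

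Of the receptors, Pdgfra was lower in Fra-2tg lungs by the largest margin of the 10 genes. Receptor alpha marks lung fibroblasts. The gene lies at chr5:75152292-75198215 on the plus strand, with Mir7025 inside it on the same strand and Gm42802 and Gm42803 overlapping it on the other. It had 26.5, 29.5 and 31.5 FPKM in Fra-2tg lungs, against 47.6, 52.1 and 57.3 FPKM in WT lungs, with a wide gap between the groups. Pdgfra averaged 29.2 ± 2.54 FPKM in Fra-2tg and 52.4 ± 4.85 FPKM in WT (SD, n = 3 each), a ratio of 0.557. Its log2 fold change was -0.82 ± 0.09 (SE; limma adjusted p = 0.00216), and the call held in all 16 alternatives with adjusted p of 0.000908 to 0.0167. Of 10211 genes averaging 5 FPKM or more, those whose centred log2 profile over the 6 libraries was most like that of Pdgfra were Stxbp6, Dtna and Tmtc1, with root mean square differences of 0.0569, 0.0574 and 0.0631 log2 units. Stxbp6, for instance, had 4.47, 4.55 and 4.83 FPKM in Fra-2tg and 8.59, 9.02 and 9.76 FPKM in WT.

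Markers of alveolar fibroblasts, the main cells that carry receptor alpha in lung, moved beside Pdgfra. Of 13 tested markers 7 fell and 1 rose, with a median log2 fold change of -0.54, and their summed level was 2852 to 3222 FPKM in Fra-2tg and 3404 to 3766 FPKM in WT, with none at 0. Without WT replicate 3, 3 fell. Inmt, the most abundant of the 13, averaged 1579 FPKM in Fra-2tg and 2027 FPKM in WT and was not called (limma adjusted p 0.0605). Col13a1 averaged 14.3 FPKM in Fra-2tg and 22.4 FPKM in WT (log2 fold change -0.61, adjusted p 0.00359), and Fgf10, a fibroblast growth factor of the alveolar niche, averaged 1.75 and 3.96 FPKM (-0.84, adjusted p 0.0036). The marker that rose was Plin2, a lipid droplet protein. Of 10 adventitial fibroblast markers 4 rose, among them Cd34 and Mfap5, and 4 fell, among them Pi16, with a median of 0.00. Their sums were 2065 to 2246 FPKM in Fra-2tg and 1576 to 1686 FPKM in WT, none at 0. Of 10 alveolar myofibroblast markers 5 rose and 2 fell, with a median of 0.35 and sums of 210.0 to 236 FPKM in Fra-2tg and 150.2 to 175 FPKM in WT, none at 0. The part of these cell types in the Pdgfra values was not tested.

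Pdgfrb, the pericyte receptor, did not pass the test although its groups did not overlap. It had 67, 49 and 60 FPKM in Fra-2tg lungs, against 68.6, 79.3 and 78.8 FPKM in WT lungs. Fra-2tg replicate 1 and WT replicate 1 lay within a few FPKM of each other. The means were 58.7 ± 9.05 FPKM in Fra-2tg and 75.6 ± 6.05 FPKM in WT (SD, n = 3 each), a ratio of 0.776, and the log2 fold change was -0.37 ± 0.12 (SE; limma adjusted p = 0.0663). Leaving out Fra-2tg replicate 1 gave -0.47 with an adjusted p of 0.0458, the only 1 of the 16 alternatives that called it, in a range of 0.0458 to 0.179. Pdgfrb stood above Pdgfra in every library. The ratio of Pdgfra to Pdgfrb was 0.395, 0.601 and 0.525 in Fra-2tg and 0.695, 0.657 and 0.727 in WT.

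The neighbouring receptor gene Csf1r, which encodes the macrophage growth factor receptor, differed the other way. Pdgfrb lies at chr18:61045150-61085061 and Csf1r at chr18:61100598-61132149, both on the plus strand, and Csf1r is overlapped by Mir6983 on the same strand and Hmgxb3 on the other. Csf1r had 55.1, 54.2 and 55.3 FPKM in Fra-2tg lungs, against 44.2, 48 and 42.9 FPKM in WT lungs (log2 fold change 0.28, adjusted p 0.0149). Its call was lost without Fra-2tg replicate 1 or WT replicate 3. Of the 6 related receptor tyrosine kinase genes of classes III and V, Csf1r and Flt3 rose and the vascular receptors Kdr, Flt1 and Flt4 and the stem cell factor receptor Kit fell. The counts were 2 rises and 4 falls, with 1 rise without Fra-2tg replicate 1 or WT replicate 3, and 2 falls without WT replicate 1 or WT replicate 3. The Kit call (limma adjusted p 0.034) was lost without any 1 library except Fra-2tg replicate 1, at 0.0638 to 0.112. That of Flt4 was lost without WT replicate 1 (0.0508) or WT replicate 3 (0.063). Kdr had a log2 fold change of -0.65 (adjusted p 0.00539), larger in size than that of Pdgfrb and smaller than that of Pdgfra. The difference between these fold changes was not tested.

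**Figure D2:**
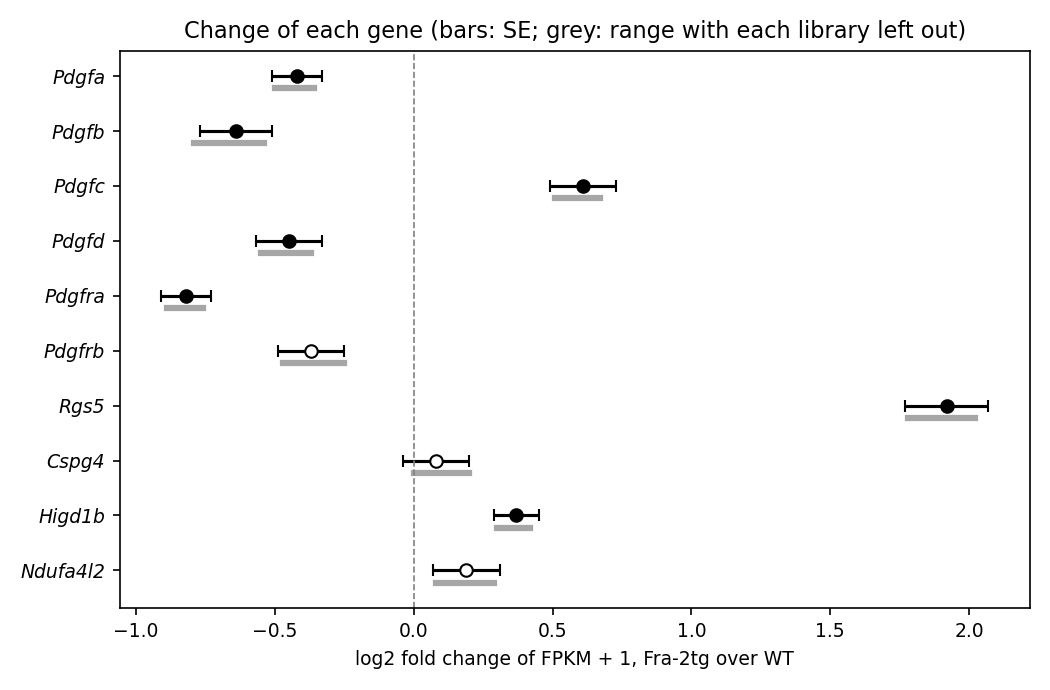
Log2 fold change of FPKM + 1, Fra-2tg over WT (horizontal axis), for each gene; circles are estimates from all 6 libraries (filled where called), black bars are SE and grey bars span the estimates with each library left out in turn. Rgs5 lies at 1.92 and Pdgfra at -0.82, and the grey bars of the filled genes stay on 1 side of 0.

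Among the pericyte markers, Rgs5 rose most, Higd1b rose slightly, and Cspg4 and Ndufa4l2 did not pass the test. Rgs5 encodes a regulator of G protein signalling that is a standard pericyte marker, and lies at chr1:169655501-169695813 on the plus strand. It had 12, 10.9 and 15.6 FPKM in Fra-2tg lungs, against 2.88, 2.87 and 2.16 FPKM in WT lungs. The lowest Fra-2tg lung was several times the highest WT lung. Rgs5 averaged 12.8 ± 2.45 FPKM in Fra-2tg and 2.64 ± 0.416 FPKM in WT (SD, n = 3 each), a ratio of 4.86, and its log2 fold change was 1.92 ± 0.15 (SE; limma adjusted p = 0.00102). The call held in all 16 alternatives, with log2 fold changes of 1.78 to 2.27 and adjusted p of 0.000279 to 0.0111. Of the 14855 tested genes, 85 had a log2 fold change at least as large upwards, Rgs5 included. Among the genes most like Rgs5 in profile were Ccdc80 and Eln, which encodes elastin, with root mean square differences of 0.2 and 0.229 log2 units over the 6 libraries. Eln had 1632, 1475 and 1603 FPKM in Fra-2tg and 477, 647 and 381 FPKM in WT.

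Other regulators of the R4 family, to which Rgs5 belongs, moved in both directions. Of the 6 tested, Rgs4, Rgs16 and Rgs1 rose and Rgs2 and Rgs3 fell, with a median log2 fold change of 0.25. Rgs2 had a log2 fold change of -0.92 (adjusted p 0.00198), at means of 19.4 FPKM in Fra-2tg and 37.7 FPKM in WT. Rgs16 averaged 3.52 FPKM in Fra-2tg and 1.17 FPKM in WT (1.05, adjusted p 0.0105). The Rgs3 call was lost without Fra-2tg replicate 2 or 3 or WT replicate 1 or 3, and the Rgs1 call without Fra-2tg replicate 3 or WT replicate 3.

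Higd1b, a mitochondrial protein gene used as a marker of lung pericytes, lies at chr11:102835849-102838040 on the plus strand. It had 73.1, 69.5 and 63.9 FPKM in Fra-2tg lungs, against 48.2, 56.6 and 54.9 FPKM in WT lungs, so that the groups did not overlap. The means were 68.8 ± 4.66 FPKM in Fra-2tg and 53.2 ± 4.45 FPKM in WT (SD, n = 3 each), a ratio of 1.29, and the log2 fold change was 0.37 ± 0.08 (SE; limma adjusted p = 0.0199). The call was lost without Fra-2tg replicate 1 (0.0682), Fra-2tg replicate 2 (0.051) or WT replicate 3 (0.0526) and with no filter (0.0571), in a range of 0.0145 to 0.0682. The genes nearest to Higd1b in profile were Fkbp7, Ralb and Zswim7, with root mean square differences of 0.0397, 0.0434 and 0.0441 log2 units.

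Cspg4, which encodes the NG2 proteoglycan of pericytes and other precursor cells, lies at chr9:56865033-56899870 on the plus strand. It had 8.54, 6.27 and 8.13 FPKM in Fra-2tg lungs, against 6.59, 7.64 and 7.25 FPKM in WT lungs. The groups overlapped, with a Fra-2tg lung both at the top and at the bottom of the 6. The log2 fold change was 0.08 ± 0.12 (SE; limma adjusted p = 0.666).

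Ndufa4l2, a hypoxia-inducible gene for a mitochondrial protein, lies at chr10:127514967-127517154 on the plus strand. It had 73.6, 61.1 and 54.9 FPKM in Fra-2tg lungs, against 53.9, 60.1 and 50.5 FPKM in WT lungs. The groups overlapped, and Fra-2tg replicate 1 was the highest of the 6 lungs. The log2 fold change was 0.19 ± 0.12 (SE; limma adjusted p = 0.264). Ndufa4l2 overlaps Shmt2 on the other strand, which had 17.7, 18.3 and 16.2 FPKM in Fra-2tg and 19.9, 16.4 and 13.9 FPKM in WT and was not called. Of 5 tested relatives of Higd1b, Ndufa4l2 and Cspg4, the mitochondrial genes Higd2a and Ndufa4 rose, with log2 fold changes of 0.44 and 0.33. That count was 0 without Fra-2tg replicate 1, Fra-2tg replicate 2 or WT replicate 3 and 1 without WT replicate 1. Of 15 targets of hypoxia signalling, 4 rose, among them Ldha and Car9, and 4 fell, among them Bnip3 and Pfkfb3, with a median log2 fold change of 0.00. Without Fra-2tg replicate 1 or WT replicate 3, 2 of them fell.

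Among other pericyte markers, more fell than rose in Fra-2tg lungs. Of 22 tested, 10 fell, 2 rose and 10 did not pass, with a median log2 fold change of -0.26, and the median of the 4 pericyte markers above was 0.28. The summed level of the 22 was 755 to 962 FPKM in Fra-2tg and 1007 to 1128 FPKM in WT, and none was at 0. Tbx2, a T-box transcription factor gene, had 103, 78.3 and 85.9 FPKM in Fra-2tg lungs, against 172, 170.4 and 183 FPKM in WT lungs. Its log2 fold change was -0.98 ± 0.10 (SE; limma adjusted p = 0.00195). Pdzd2 (-1.1), Agtr1a (-0.96), which encodes an angiotensin receptor, and Lamc3 (-0.65), a laminin chain, also fell by log2 fold change, with adjusted p of 0.00594, 0.00624 and 0.00692.

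Among the remaining pericyte markers were the Notch receptor gene Notch3 (log2 fold change -0.38, adjusted p 0.035) and the soluble guanylate cyclase subunit genes Gucy1a3 (-0.55, 0.033) and Gucy1b3 (-0.52, 0.0247). The calls of Notch3 and Gucy1b3 were lost without Fra-2tg replicate 1 or 2 or WT replicate 2 or 3, with adjusted p of 0.0606 to 0.112 for Notch3 and 0.0525 to 0.0758 for Gucy1b3. That of Gucy1a3 was lost without Fra-2tg replicate 1 or WT replicate 2 or 3, at 0.0579 to 0.107. The 2 that rose were Rgs4 (0.40, 0.0089) and the potassium channel gene Kcnj8 (0.31, 0.0485). Kcnj8 lost its call without any of the libraries. Its channel partner gene Abcc9 had 2.09, 1.78 and 2.7 FPKM in Fra-2tg and 2.11, 2.04 and 2.07 FPKM in WT (adjusted p 0.809). Cox4i2, whose mean over all 6 libraries was the highest of the list although Tbx2 and Postn were higher in WT, had 187, 153 and 129.7 FPKM in Fra-2tg and 135, 143 and 139 FPKM in WT (adjusted p 0.408). The count of falls was 6 without Fra-2tg replicate 1 and 5 without WT replicate 2 or WT replicate 3, and that of rises was 1 without any library.

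**Figure D3:**
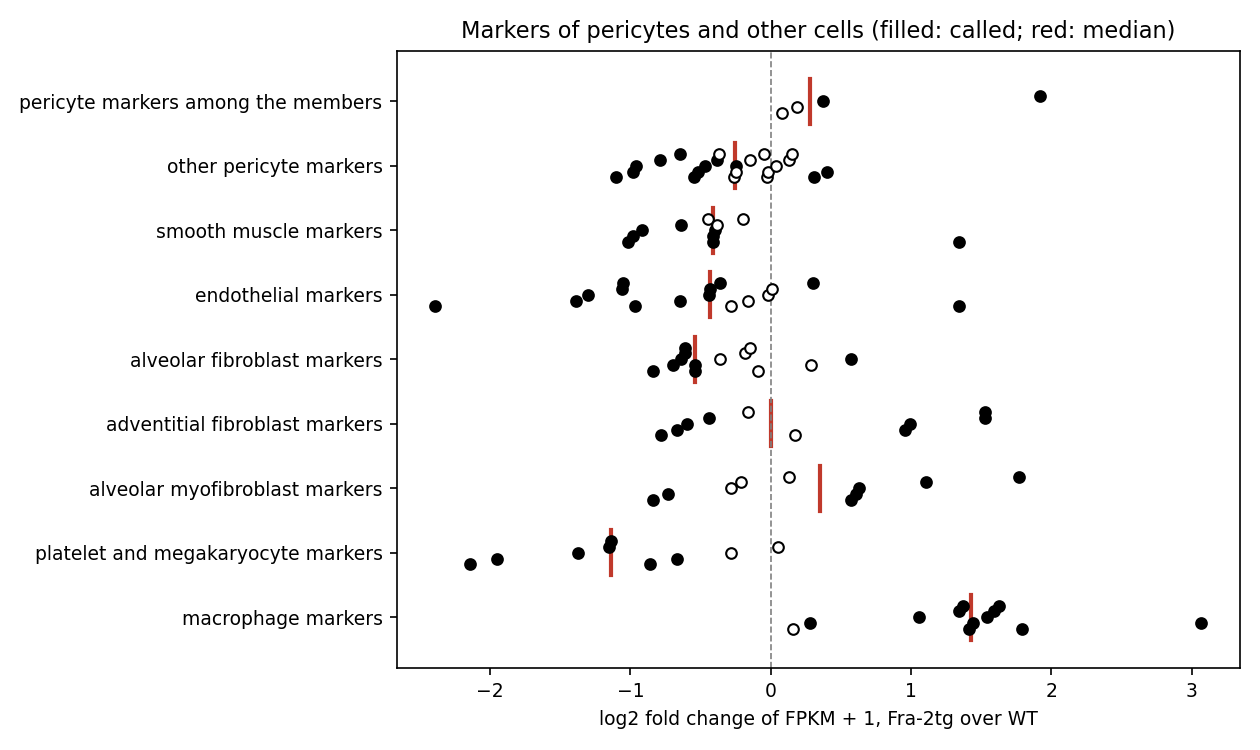
Log2 fold change of FPKM + 1, Fra-2tg over WT (horizontal axis), for each tested gene (points, filled where called) of marker lists for pericytes and other cells; vertical red lines are list medians. The 4 pericyte markers of the set have a median of 0.28 and the 22 others one of -0.26; endothelial markers have one of -0.43 and macrophage markers one of 1.42.

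Markers of the cells that lie beside pericytes, or that make the ligands, moved as well. Of 16 endothelial markers 10 fell and 2 rose, with a median log2 fold change of -0.43, and their sums were 2444 to 2653 FPKM in Fra-2tg and 3252 to 3475 FPKM in WT, none at 0. Among them Vwf, the von Willebrand factor gene, averaged 31.1 FPKM in Fra-2tg and 78.2 FPKM in WT (-1.3, adjusted p 0.00114). The endothelial rises were Emcn and Car4, and Emcn alone was called without Fra-2tg replicate 1 or 2 or any 1 of the WT replicates. Of 11 smooth muscle markers 7 fell, among them Des and Acta2, and Ntf3 rose, with a median of -0.41 and sums of 409.7 to 500.4 FPKM in Fra-2tg and 573 to 628 FPKM in WT, none at 0. The Acta2 call (adjusted p 0.0415) was lost without any 1 library except Fra-2tg replicate 2, at 0.0602 to 0.127. Of 9 platelet and megakaryocyte markers, cells that store PDGF, 7 fell, with a median of -1.14 and sums of 39 to 49.4 FPKM in Fra-2tg and 66.6 to 90.5 FPKM in WT, none at 0. Of 12 macrophage markers 11 rose, with a median of 1.42 and sums of 2285 to 4584 FPKM in Fra-2tg and 448 to 1007 FPKM in WT, none at 0. The largest part of these sums was Chi3l3, at 1470.4, 3678 and 2536 FPKM in Fra-2tg and 193, 619.6 and 189.9 FPKM in WT. The part of these cell types in the values of the 10 genes was not tested.

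Ratios within a library set the 10 genes against each other independently of library scaling. The ratio of Pdgfb to its receptor gene Pdgfrb was 1.17, 1.12 and 0.959 in Fra-2tg lungs and 1.38, 1.28 and 1.24 in WT lungs. That of Pdgfa to Pdgfra went the other way, at 2.36, 1.87 and 1.63 in Fra-2tg and 1.56, 1.59 and 1.22 in WT, since Pdgfra was lower by more than Pdgfa. Each of the 4 pericyte markers of the set stood higher against Pdgfrb in Fra-2tg. Pdgfrb itself had a log2 fold change of -0.37. Of the 22 other pericyte markers, which were not set against it, 10 fell and 2 rose, with a median log2 fold change of -0.26. The ratio of Rgs5 to Pdgfrb was 0.18, 0.222 and 0.259 in Fra-2tg and 0.0421, 0.0363 and 0.0274 in WT. Cspg4, which did not pass the test on its own, was at 0.128, 0.128 and 0.135 of Pdgfrb in Fra-2tg and 0.0961, 0.0963 and 0.092 in WT. Higd1b was at 1.09, 1.42 and 1.06 times Pdgfrb in Fra-2tg and 0.703, 0.714 and 0.696 in WT.

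Set against the mean log2 level of the endothelial markers, the 4 pericyte markers of the set were higher in Fra-2tg lungs. The differences were 2.85 (Rgs5), 0.94 (Higd1b), 0.77 (Ndufa4l2) and 0.66 (Cspg4) log2 units. The endothelial markers were themselves mostly lower, with a median log2 fold change of -0.43. The ratios use their mean, in which large falls weigh more, such as those of Ednrb (-2.39), Plvap (-1.39) and Vwf (-1.30). Pecam1 (0.01) and Tie1 (-0.02) hardly differed, and Emcn (1.34) and Car4 (0.30) rose. How much of each difference comes from the endothelial mean was not tested. On their own, Ndufa4l2 and Cspg4 had log2 fold changes of 0.19 and 0.08 and were not called. The groups did not overlap in any of the 11 ratios computed, and taken singly they did not overlap for 45.7% of all tested genes. The ratios are not independent, since most share Pdgfrb or the endothelial mean, and no share over other gene pairs was computed. In each of the 11 ratios the two-sided exact permutation p was 0.1, also after adjustment over the 11. That is the smallest that 3 against 3 libraries can give. With 1 FPKM added to both genes the difference for Rgs5 to Pdgfrb was 2.29 in place of 2.65 log2 units.

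**Figure D4:**
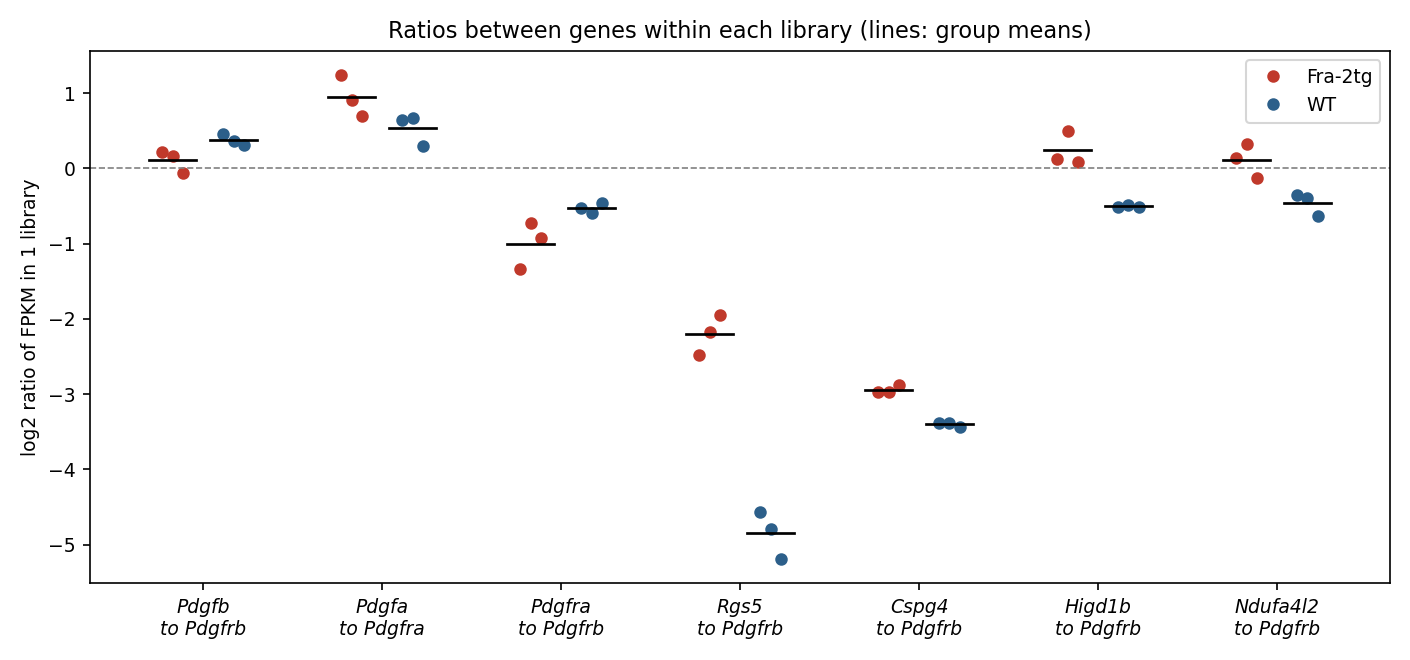
Log2 ratio of the FPKM of 2 genes within 1 library (vertical axis) for 7 gene pairs (horizontal axis), with Fra-2tg lungs in red on the left and WT lungs in blue on the right of each pair; points are libraries and lines are group means. The ratio of Rgs5 to Pdgfrb is higher in Fra-2tg by 2.65 log2 units and that of Pdgfb to Pdgfrb lower by 0.27.

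Genes that process the ligands or hold them outside the cell were mostly higher in Fra-2tg lungs. Of 13 tested, 7 rose and 1 fell, with a median log2 fold change of 0.44. Plat, the tissue plasminogen activator that cleaves latent PDGF-C, had 34.2, 32.4 and 32.5 FPKM in Fra-2tg lungs, against 21.8, 24.4 and 22.7 FPKM in WT lungs (0.51 ± 0.06 SE, adjusted p 0.00256). Plau, the urokinase that cleaves latent PDGF-D, had 25, 25.9 and 23 FPKM in Fra-2tg and 7.94, 11.4 and 6.67 FPKM in WT (1.44 ± 0.17 SE, adjusted p 0.00245). Thus these 2 protease genes rose, while Pdgfc rose and Pdgfd fell. St14, another protease gene of this list, was not called (0.26, limma adjusted p 0.0568). Furin, the proprotein convertase that cuts the PDGF-A and PDGF-B precursors, averaged 67.5 FPKM in Fra-2tg and 43.5 FPKM in WT (0.63, adjusted p 0.00335). Sparc, a matrix protein that binds PDGF, averaged 2164 FPKM in Fra-2tg and 1158 FPKM in WT (0.91, adjusted p 0.00376). The other rises were Plaur, the urokinase receptor gene, Thbs1 and Pcsk6, the last of which lost its call (adjusted p 0.0484) without any 1 library except Fra-2tg replicate 2, with adjusted p of 0.0722 to 0.123. The fall was the co-receptor gene Nrp1 (-0.45, adjusted p 0.0234), which was not called without Fra-2tg replicate 1 or 2 or WT replicate 2 or 3. Platelet markers were lower and macrophage markers higher in the same lungs, and their part in these values was not tested.

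The kinases, adaptors and phosphatases downstream of the receptors mostly did not pass the test. Of 37 tested, 1 rose and 5 fell, where 13.6% of all tested genes were called higher and 13% lower. The median log2 fold change was -0.01. The falls were Stat5b (-0.38), the phosphoinositide 3-kinase subunit gene Pik3cb (-0.42), the ubiquitin ligase gene Cblb (-0.57), the adaptor gene Gab1 (-0.39) and Slc9a3r2 (-0.27), with 3 falls without WT replicate 1 or WT replicate 3. The Gab1 call was lost without any 1 of the WT replicates, and the Slc9a3r2 call without Fra-2tg replicate 2 or 3 or WT replicate 1 or 3. The rise was Cbl, the ligase that takes activated receptors out of the membrane, at 2.18, 1.85 and 3.18 FPKM in Fra-2tg and 0.799, 1.05 and 1.29 FPKM in WT (0.72, adjusted p 0.021). Its call was lost without Fra-2tg replicate 1, WT replicate 1 or WT replicate 2, and without Fra-2tg replicate 2 the count of rises was 2. Mapk3, whose mean over all 6 libraries was the highest of the list although Slc9a3r2 was slightly higher in WT, had 269, 243 and 229 FPKM in Fra-2tg and 256, 276 and 255 FPKM in WT (adjusted p 0.453).

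Of 16 early response genes that growth factors induce, 4 rose and 2 fell, with a median log2 fold change of -0.14. Together these calls were near the share of 26.7% called among all tested genes. The rises were Hmox1 (0.73), the chemokine gene Ccl2 (1.14), Myc (1.12) and Egr2 (0.58). The falls were Ier3 (-1.13, adjusted p 0.00239) and Ctgf (-0.63, adjusted p 0.0485), and 1 fall was called without Fra-2tg replicate 3 or any 1 of the WT replicates. Without Fra-2tg replicate 1 the Ctgf call was lost as well (adjusted p 0.125), and Egr1 (-1.54, 0.0416) and Ier2 (-0.50, 0.016) were called lower, which gave 3 falls. The Egr2 call was lost without Fra-2tg replicate 1 or 2 or WT replicate 1 or 3, at 0.0592 to 0.0858. Cyr61 and Dusp1, the most abundant of the list by the mean over all 6 libraries although Ier3 was the highest in WT, varied widely within both groups. Cyr61 had 275, 145 and 100.4 FPKM in Fra-2tg and 91.7, 206 and 101 FPKM in WT (adjusted p 0.579).

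Of 19 genes by which endothelial cells and pericytes signal to each other, 4 fell and 2 rose, with a median log2 fold change of -0.04. Both directions together were near the 26.7% called among all tested genes. Angpt1, the angiopoietin that pericytes supply to endothelium, had 5.01, 3.62 and 5.45 FPKM in Fra-2tg lungs, against 11.5, 11.4 and 14.7 FPKM in WT lungs (-1.26 ± 0.15 SE, adjusted p 0.00265). The transforming growth factor beta co-receptor gene Eng (-1.05, adjusted p 0.00064), its partner Acvrl1 (-0.79, 0.00156) and the ephrin gene Efnb2 (-0.44, 0.0133) fell as well. The rises were the chemokine gene Cxcl12 (0.64, 0.00278) and the Notch ligand gene Jag2 (0.65, 0.00333). Of the 5 ligand genes of the VEGF family, which is related to the PDGFs, Vegfa fell and Pgf and Vegfc rose. Vegfa had 218, 208 and 199 FPKM in Fra-2tg and 357, 388 and 399 FPKM in WT (-0.87 ± 0.07 SE, adjusted p 0.0012), and Pgf had 19.3, 19.3 and 16.5 FPKM in Fra-2tg and 5.51, 7.79 and 4.25 FPKM in WT (1.53 ± 0.18 SE, adjusted p 0.00257). The Vegfc call was lost without Fra-2tg replicate 1 or 3 or WT replicate 2 or 3.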

How the data were processed

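Poly(A) RNA from lung of 6 mice was sequenced with a kit that keeps strand information, per the labels' protocols. The deposited table holds FPKM values made by the authors, 1 column per mouse, and 0 columns were left unused. The submitters' processing notes name Cufflinks 2.2.1, SAMtools 0.1.19, TopHat2 2.0.10, Bowtie 1.0.0 and FastQC, and the build GRCm38 (mm10), with no roles. The sources used here do not say whether counting used the strand, so values of overlapping genes are uncertain.

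From these values limma 3.58.1 in R 4.3.3 was fitted, two-sided, to log2(FPKM + 1) with a variance trend for all genes averaging 0.5 FPKM or more, and p-values were adjusted by Benjamini-Hochberg over all of them. Genes were called at an adjusted p under 0.05. Fold changes on this scale understate low genes. Tables, exact permutation tests and motif searches used Python 3.11.15. The fit was tested on simulated data. Coordinates come from GENCODE on GRCm38. Each library is 1 mouse, and limma p-values set the group difference against the spread between these mice, moderated over all tested genes.

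The 10 genes and 20 further lists (258 different genes, 256 in the table) were chosen with earlier results of these data known. Genes named were drawn, in each list, from the 4 called genes with the smallest adjusted p, the 2 most abundant, and genes that account for counts of 5 or fewer. Not every gene that meets this rule is named. Notch3, Gucy1a3, Gucy1b3, Abcc9 and Pcsk6 fall outside that rule and were added after their values were seen. A gene that the rule on similar profiles names is not reported here. Alternatives left out each library, used pseudocounts of 0.1 and 0.01 FPKM, dropped the filter or set it at 5 FPKM, scaled by median ratios or to equal sums, and took the replicate number as a block. Others dropped the variance trend, weighted the libraries or moderated the variance robustly.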

Additional observations from a re-analysis of the deposited data

How the results depend on the processing

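Of 159 values of the 10 genes under alternatives, 144 kept their call, 14 lost it, 1 gained it and 0 turned direction. Across all tested genes, 3963 were called, and equal library sums called 2301, the cause of which was not tested. With each library left out, 2229 to 3189 genes were called, with 2510 without Fra-2tg replicate 1 and 2229 without WT replicate 3, where fewer samples were fitted. Of the 10 genes, 4 were called lower, against 1 with no filter. That setting adds every gene below the filter, 3994 of them at 0 in every library. Leaving out a library gave 2 to 4 called lower, and 2 without WT replicate 3. Of 640 counts over the other lists under alternatives, 548 stayed within 1.5 times and 92 did not. The median log2 fold change of all genes was 0.0026, with 0.0009 at equal library sums and -0.0002 at median-ratio scaling. In promoter windows cut to the 250 bases before the start, the GCGTG match of Cspg4 was lost and the other matches stayed.

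Replicate numbers are shared by both groups, but same-numbered samples had correlations of -0.0539, 0.0139 and 0.163 in their deviations from the group means, so the numbers do not show a pairing. With the replicate block, 3541 genes were called, and of the 10 genes only Higd1b lost its call, at an adjusted p of 0.0502.

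The number of fragments is unknown, so no counting interval can be given, and Pdgfc near 1 FPKM rests on the fewest fragments per base. Of the 5 genes of the set called at an adjusted p between 0.01 and 0.05, 4 lost the call when some library was left out. Which cells carry the differences cannot be read from whole lung.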

Other observations

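Markers of mesothelium, heart muscle and fat were also measured, to describe what the samples held. Of 7 mesothelial markers 2 fell and 1 rose, with a median log2 fold change of -0.28 and sums of 245 to 284 FPKM in Fra-2tg lungs and 235 to 280.2 FPKM in WT lungs. The falls were Upk1b, at 13.6, 14 and 12.8 FPKM in Fra-2tg and 51.9, 43 and 59.5 FPKM in WT (limma adjusted p = 0.000519), and Gpm6a, and the rise was Msln. The Msln call was lost without any 1 of the libraries except WT replicate 1, and the Gpm6a call without Fra-2tg replicate 1 or 2 or WT replicate 1. Of 8 heart muscle markers 7 fell, with a median of -1.78 and sums of 101 to 186 FPKM in Fra-2tg and 328 to 529.7 FPKM in WT. Of 5 tested fat markers 4 fell (Cidec, Cfd, Adipoq and Plin1), with a median of -1.11 and sums of 62.4 to 103 FPKM in Fra-2tg and 82.5 to 116 FPKM in WT, with Lep and Ucp1 at 0 in at least 1 library. The fifth, Fabp4, made up most of the Fra-2tg sums. It had 47.5, 86.3 and 51.4 FPKM in Fra-2tg and 46, 42 and 48 FPKM in WT and was not called (limma adjusted p 0.221). Heart vessels and fat hold pericytes too, and the part of these tissues in the values of the 10 genes was not tested. Whether the heart muscle transcripts came from lung itself or from tissue beside it cannot be told from these samples.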
